A study of Mus musculus with 6 samples.

Results

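Coagulation factor transcripts were followed through RNA-seq of mouse tumour-associated neutrophils. The 10 members, a list of gene names, were F2, F3, F5, F7, F10, F13a1, Fga, Fgb, Fgg and Tfpi. All 10 were among the 21959 gene IDs measured. The neutrophils came from mouse models of hepatocellular carcinoma grown from Hepa1-6, a hepatoma cell line. They comprised 3 libraries labelled GPR35-positive and 3 labelled GPR35-negative, after a G protein-coupled receptor of that name. No other genotype, treatment, strain or age is given in the sources used here for either group, nor is the way the cells were divided. The labels leave unsaid whether the 3 libraries of a group stem from different mice, and the p-values here reflect the scatter of these libraries alone, and that scatter may be technical.

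Clotting starts when tissue factor (F3) on a cell surface binds factor VII (F7) and activates factor X (F10). Activated factor X with its cofactor factor V (F5) converts prothrombin (F2) to thrombin, which cleaves fibrinogen, a protein of alpha, beta and gamma chains (Fga, Fgb, Fgg), into fibrin. Factor XIII, whose catalytic A subunit is encoded by F13a1, crosslinks the fibrin, and tissue factor pathway inhibitor (Tfpi) blocks the first steps. Hepatocytes secrete prothrombin, factor VII and the fibrinogen chains. Factors V and X are made by hepatocytes and, in mouse, also by macrophages, which also make F13a1. Tissue factor is made by monocytes, fibroblasts and tumour cells, and Tfpi is best known from endothelium.

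Libraries of both groups carried hepatoma and myeloid transcripts. FPKM, fragments per kilobase of gene scaled to the size of the library, is the unit of all levels. The libraries held 15742744 to 18314104 reads in genes, as recovered from the FPKM. Gpr35, the gene named by the labels, was at 20.2 ± 1.89 FPKM in GPR35-positive and 1.57 ± 0.398 FPKM in GPR35-negative libraries (SD, n = 3 each). The limma test used throughout called 23.3% of all genes higher and 45.5% lower, GPR35-positive against GPR35-negative. All 12 mature neutrophil markers of a list, such as S100a8 and Cxcr2, were higher, and their summed level was 9556 to 10509 FPKM in GPR35-positive and 879 to 1122 FPKM in GPR35-negative libraries. Of 20 macrophage markers, 11 were tested and called higher. Of these 11, 6 were under 1 FPKM in every GPR35-negative library, so that the filter itself favoured that direction for them. The 20 markers gave sums of 948 to 979 FPKM in GPR35-positive and 37.8 to 51.8 FPKM in GPR35-negative libraries. The other 9, Marco and Timd4 at 0 in every GPR35-negative library among them, were below the filter of 1 FPKM in at least 3 libraries. Of genes known from Kupffer cells, the resident macrophages of liver, Cd5l averaged 4.94 FPKM in GPR35-positive and 0.196 FPKM in GPR35-negative libraries. Others were near 0, with Clec4f at 0.00826 and 0.0242 FPKM and Vsig4 at 0.0260 and 0.0130 FPKM in GPR35-positive and GPR35-negative means. Of 16 hepatocyte and hepatoma markers, 14 were lower, 1 was higher and 1 did not pass, with sums of 16464 to 16864 FPKM in GPR35-positive and 24733 to 26037 FPKM in GPR35-negative libraries. In such bulk samples, fewer cells of a type and less RNA per cell cannot be told apart.

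Promoters are shown for the fibrinogen genes and for the neighbouring F7 and F10 genes, since these 2 gene clusters moved in opposite directions. The fibrinogen genes lie within 42.1 kb of chromosome 3, with Fgg from 83007724 to 83015049, Fga from 83026076 to 83033627 and Fgb from 83040141 to 83049863 (GENCODE M21, GRCm38), and F7 ends 1498 bases before F10 starts, on the same strand of chromosome 8. Each sequence is the 250 bases before the gene's start in RefSeq (build GRCm38.p6), read 5′ to 3′ on the gene's strand, and capitals mark matches to 6 textbook motifs. These were a half-site of HNF1 (ATTAAC) and a site of HNF4 (CAAAGNNCA), which are hepatocyte factors, a C/EBP site (TTGCNNAA), shared by liver and myeloid cells, the core of PU.1 (GAGGAA), a myeloid factor, AP-1 (TGANTCA) and SP1 (GGGCGG). The motifs were chosen after the sequences had been seen. Both strands were searched, and in these 5 promoters no match overlaps another. For Fga the annotation GENCODE M21 puts the start of the gene within the window shown.
Fgb, chr3:83049864-83050113, reverse strand: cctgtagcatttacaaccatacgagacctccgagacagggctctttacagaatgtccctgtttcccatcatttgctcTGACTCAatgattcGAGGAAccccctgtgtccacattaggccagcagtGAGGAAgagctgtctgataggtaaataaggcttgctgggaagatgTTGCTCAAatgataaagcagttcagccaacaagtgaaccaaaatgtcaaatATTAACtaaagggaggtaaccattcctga
Fga, chr3:83025903-83026152, forward strand: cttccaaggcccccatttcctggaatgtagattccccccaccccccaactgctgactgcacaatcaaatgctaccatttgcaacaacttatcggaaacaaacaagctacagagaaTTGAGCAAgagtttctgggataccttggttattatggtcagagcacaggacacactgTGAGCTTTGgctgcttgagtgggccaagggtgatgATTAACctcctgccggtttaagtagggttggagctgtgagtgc
Fgg, chr3:83007474-83007723, forward strand: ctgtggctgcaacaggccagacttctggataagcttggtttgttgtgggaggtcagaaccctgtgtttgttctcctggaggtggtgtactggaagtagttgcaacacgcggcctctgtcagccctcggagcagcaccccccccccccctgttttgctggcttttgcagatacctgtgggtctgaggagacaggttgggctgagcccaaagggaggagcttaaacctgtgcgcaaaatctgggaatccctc
F7, chr8:13025784-13026033, forward strand: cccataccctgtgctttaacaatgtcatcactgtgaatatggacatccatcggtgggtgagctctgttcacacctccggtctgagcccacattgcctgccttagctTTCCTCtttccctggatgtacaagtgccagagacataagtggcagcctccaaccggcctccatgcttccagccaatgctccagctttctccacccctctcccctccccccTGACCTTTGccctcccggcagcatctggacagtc
F10, chr8:13037058-13037307, forward strand: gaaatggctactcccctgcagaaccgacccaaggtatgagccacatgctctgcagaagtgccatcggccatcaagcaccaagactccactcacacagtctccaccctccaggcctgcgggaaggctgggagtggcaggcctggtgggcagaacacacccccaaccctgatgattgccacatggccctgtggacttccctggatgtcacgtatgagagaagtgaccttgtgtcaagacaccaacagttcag

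Fgb and Fga each held an HNF1 half-site, 29 and 43 bases before the start, and a C/EBP site, 80 and 135 bases before it. Fga also held an HNF4 match, and Fgb held an AP-1 match and 2 PU.1 cores. All distances are from the RefSeq start. By the GENCODE M21 start of Fga, its HNF1 half-site lies inside the gene and its HNF4 match spans the start. F7 held an HNF4 match 34 bases before its start and a PU.1 core at 144 bases. Fgg and F10 held none of the 6 motifs in these windows. Among all 32851 promoters of the same length, 6.43% held the HNF1 half-site, 5.49% the HNF4 site, 9.56% the C/EBP site, 23.3% the PU.1 core, 6.75% the AP-1 site and 32.7% the SP1 site. Of the other members, F3 held 2 AP-1 and 3 SP1 matches, F2 held 1 AP-1 match, and F5 held 1 SP1 match. F13a1 and Tfpi have 2 annotated starts each, and a PU.1 core stood before 1 start of F13a1 and 1 of Tfpi, while an SP1 match stood before both starts of Tfpi. A match is only a run of letters and does not show that a factor binds there.

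The liver-made members except F7 were lower in GPR35-positive libraries, while F7, F10, F5, F13a1 and F3 were higher. The test was limma on log2(FPKM + 1) across 10060 genes with at least 1 FPKM in 3 libraries, with Benjamini-Hochberg adjustment over all of them and a threshold of 0.05. Log2 fold changes are on this scale, GPR35-positive minus GPR35-negative. Of the 10 members, 9 passed the filter on low values and Tfpi did not. F5 and F13a1 passed the filter only through the GPR35-positive libraries, so for those genes the filter itself favoured a difference. The members were also chosen with earlier results of these data known, so the counts that follow are a description. All 9 tested passed the threshold in 1 direction or the other, as did 68.8% of all genes tested. Of the 9, 5 were higher, against 23.3% of all genes tested, and 4 were lower, against 45.5%, so that the share lower was near that of all genes. In all 9 the groups did not overlap, as was the case for 72.5% of all genes tested. The median log2 fold change was 0.55 over these 9 and −0.19 over all genes tested. Of all calls, 33.9% were higher, or 55.2% with median-of-ratios scaling, which moved the median of all genes to −0.03.

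**Figure D1:**
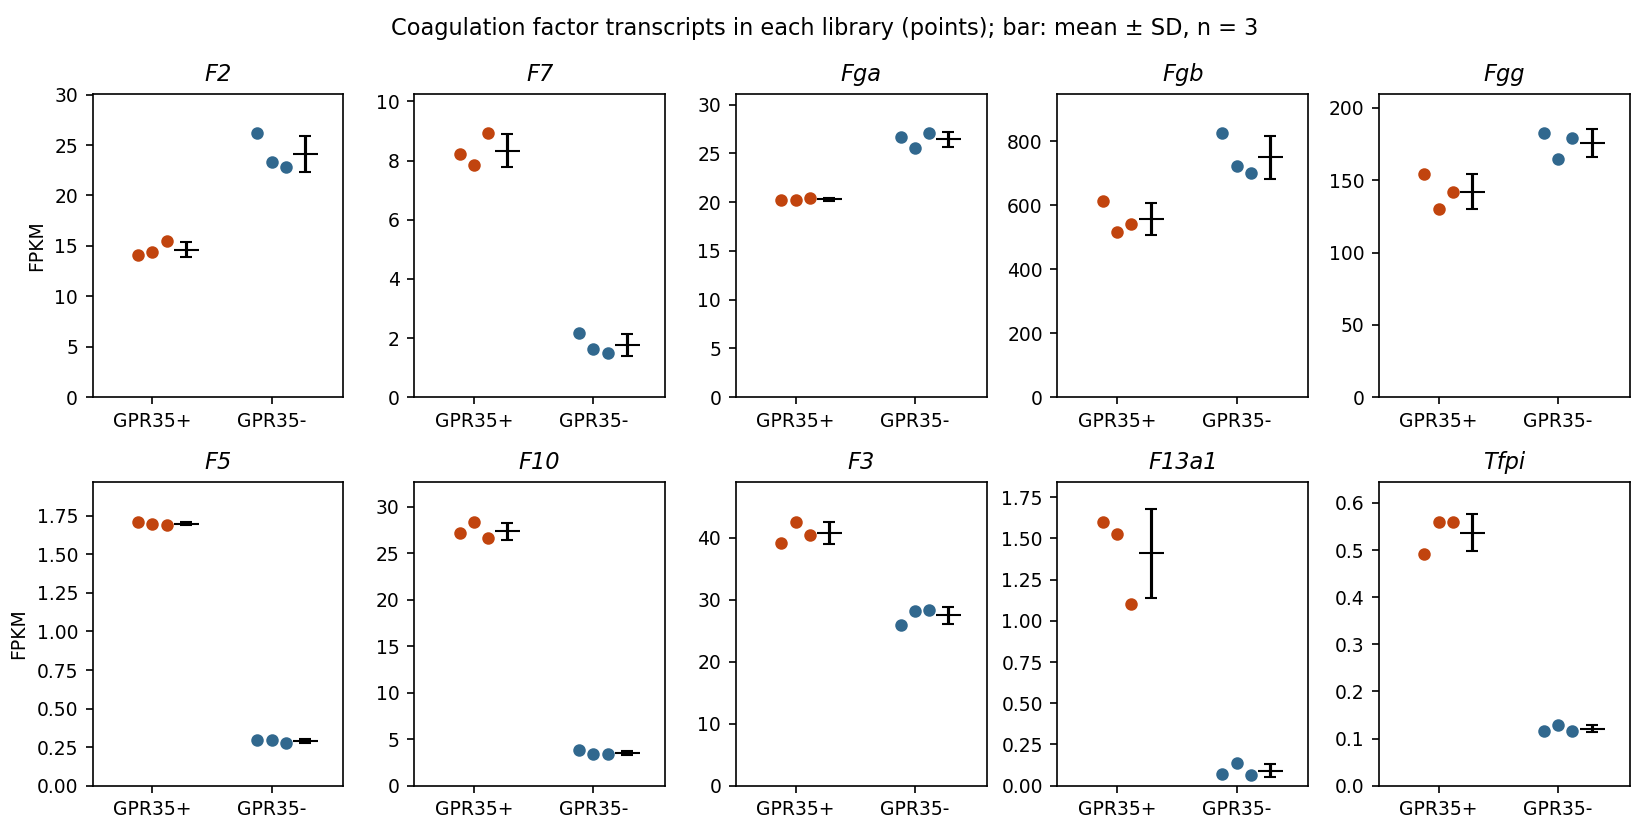
Levels of the 10 members in FPKM (vertical axes, each starting at 0) in the 3 GPR35-positive and 3 GPR35-negative libraries; points are libraries and horizontal bars with whiskers are means ± SD. In every panel the groups are apart, with F2, Fga, Fgb and Fgg lower and the other 6 members higher in GPR35-positive libraries.

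Prothrombin showed the largest fall among the members. F2 (ENSMUSG00000027249) spans bases 91625320 to 91636414 of chromosome 2 in GRCm38, reverse strand. Its level was 14.1, 14.4 and 15.5 FPKM in GPR35-positive replicates 1 to 3, against 26.2, 23.3 and 22.8 FPKM in the GPR35-negative ones. Every GPR35-positive library was below every GPR35-negative one. The ratio of means was 0.607, and the log2 fold change was −0.68 (SE 0.08, limma adjusted p = 3.97e-05). A total of 96.3% of the genes tested had a larger log2 fold change than F2. Set against the summed hepatocyte and hepatoma markers of the same library, F2 was at 0.877 ± 0.0378 FPKM per 1000 FPKM of markers in GPR35-positive and 0.946 ± 0.0583 in GPR35-negative libraries (SD, n = 3 each). These ratios overlapped between groups (exact permutation test, two-sided, p = 0.2, adjusted p = 0.242, where 0.1 is the smallest p that 3 against 3 allows).

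The fibrinogen chain genes were lower too, with log2 fold changes of −0.43 to −0.31. Fgb (ENSMUSG00000033831), the beta chain gene, was the most abundant member, at 613, 516 and 540 FPKM in GPR35-positive libraries and 825, 723 and 700 FPKM in GPR35-negative ones. Its log2 fold change was −0.43 (SE 0.09, limma adjusted p = 0.00181). Fgg (ENSMUSG00000033860), the gamma chain gene, was at 154, 130 and 142 FPKM in GPR35-positive and 183, 165 and 179 FPKM in GPR35-negative libraries. The lowest GPR35-negative Fgg value was only a little above the highest GPR35-positive one. Fga (ENSMUSG00000028001), the alpha chain gene, was at 20.2, 20.2 and 20.4 FPKM in the GPR35-positive libraries and 26.7, 25.6 and 27.1 FPKM in the GPR35-negative ones.

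The log2 fold change was −0.37 (SE 0.07, limma adjusted p = 0.000774) for Fga and −0.31 (SE 0.08, limma adjusted p = 0.00615) for Fgg. With median-of-ratios scaling Fgg no longer passed, at −0.11 (limma adjusted p = 0.272). Fga and Fgb then stood at −0.18 and −0.23 (limma adjusted p = 0.0481 and 0.0465). Of all genes tested, 63.7% had a larger log2 fold change than Fgg, 71.8% than Fga and 78.9% than Fgb. The summed fibrinogen level was 43.1 ± 3.54 FPKM per 1000 FPKM of hepatocyte and hepatoma markers in GPR35-positive libraries and 37.3 ± 2.24 in GPR35-negative ones (SD, n = 3 each). Relative to that sum, each GPR35-positive library was thus above each GPR35-negative one, in the opposite direction to the FPKM. Most of the sum was Trf, Krt18 and Krt8, with ratios of means of 0.657, 0.648 and 0.670. Over the 16 markers the ratios ran from 0.454 to 1.65, with summed fibrinogen at 0.756. The direction therefore depends on the markers used.

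The chain genes were unequal in abundance, and their shares overlapped between the groups. Fibrinogen is assembled from equal numbers of the 3 chains. Of the summed FPKM of the chains, Fgb made up 77.4% ± 0.473 in GPR35-positive and 78.7% ± 1.32 in GPR35-negative libraries (SD, n = 3 each). Fgg made up 19.8% ± 0.363 in GPR35-positive and 18.5% ± 1.13 in GPR35-negative libraries. Fga, the scarcest chain by FPKM, made up 2.84% ± 0.246 in GPR35-positive and 2.79% ± 0.202 in GPR35-negative libraries. For none of the 3 shares did the test separate the groups (exact permutation tests, two-sided, p = 0.3 for Fgb, 0.3 for Fgg and 0.8 for Fga). In all, 23 single-gene shares and ratios within a library were tested, so that the smallest raw p of 0.1 became 0.135 after Benjamini-Hochberg adjustment, and none passed 0.05.

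**Figure D2:**
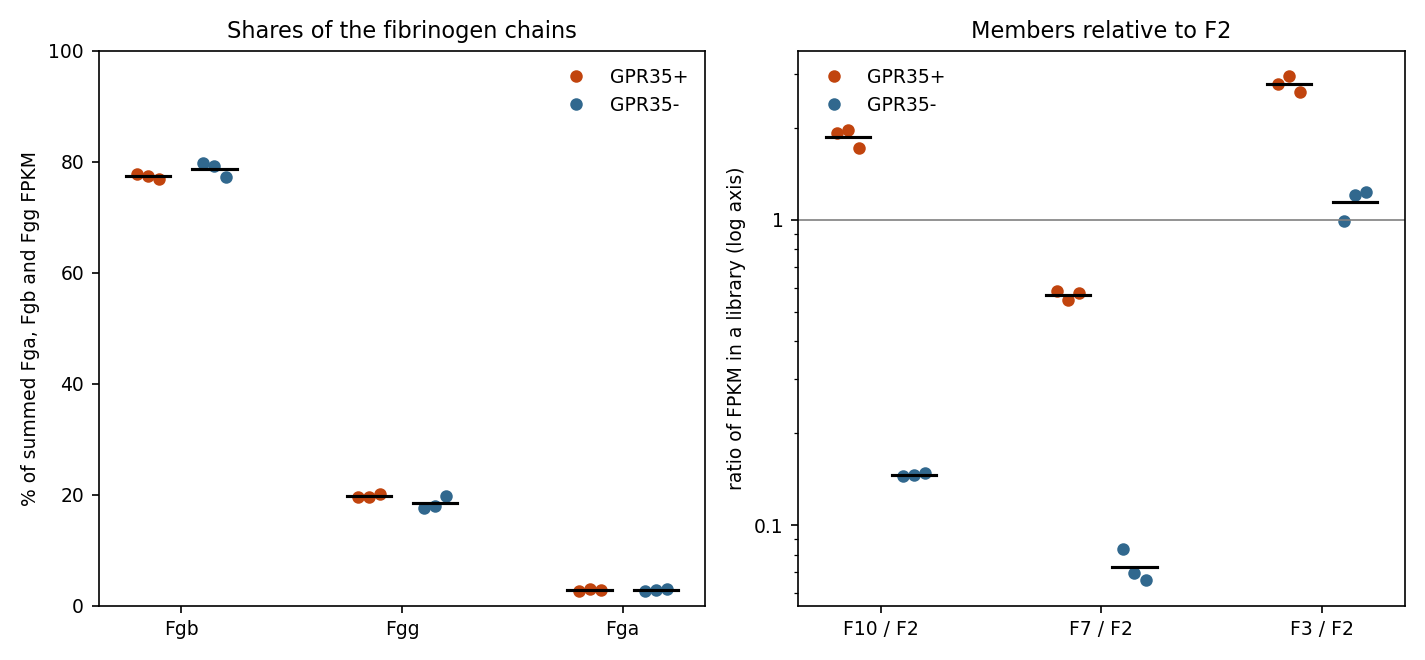
Left, the percentage of summed fibrinogen FPKM contributed by each chain gene; right, F10, F7 and F3 as ratios to F2 within a library, on a log axis; points are libraries and lines are group means. The chain shares overlap between groups, while F10 over F2 is 1.72 or more in each GPR35-positive library and at or below 0.148 in each GPR35-negative one.

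Factor X had the largest log2 fold change of the members on the log2(FPKM + 1) scale. F13a1 was ahead of it with a pseudocount of 0.1, at 2.98 against 2.93, and by limma-voom on recovered reads, at 3.93 against 2.96. F10 (ENSMUSG00000031444), the gene of the protease that makes thrombin, spans bases 13037308 to 13056676 of chromosome 8, forward strand. It was at 27.1, 28.4 and 26.6 FPKM in the GPR35-positive libraries and 3.80, 3.39 and 3.37 FPKM in the GPR35-negative ones. No GPR35-negative library came near the GPR35-positive range. The ratio of means was 7.78 and the log2 fold change 2.65 (SE 0.08, limma adjusted p = 1.24e-09), which 2.18% of genes tested exceeded. Its level rested on 1267 to 1332 reads in GPR35-positive and 145 to 179 reads in GPR35-negative libraries.

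Factor VII, listed here as liver-made, was higher, unlike the other 4 members of that class. Which cells carried F7 in these samples was not tested. F7 (ENSMUSG00000031443), whose product binds tissue factor, lies upstream of F10 from 13026034 to 13035809. It was at 8.23, 7.84 and 8.93 FPKM in GPR35-positive and 2.18, 1.62 and 1.5 FPKM in GPR35-negative libraries. The groups were well apart, with a ratio of means of 4.71 and a log2 fold change of 1.76 (SE 0.11, limma adjusted p = 2.00e-07). The balance between these neighbours was also set out within each library. F10 over F7 was 3.30, 3.62 and 2.98 in GPR35-positive libraries and 1.74, 2.1 and 2.24 in GPR35-negative ones, without overlap (exact permutation test, two-sided, p = 0.1, the smallest possible, adjusted p = 0.135).

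Factor V, the cofactor of factor X, was low in all libraries and varied little within a group. F5 (ENSMUSG00000026579) spans bases 164151838 to 164220277 of chromosome 1, forward strand. It was at 1.71, 1.7 and 1.69 FPKM in the GPR35-positive libraries and 0.297, 0.294 and 0.274 FPKM in the GPR35-negative ones. Its ratio of means was 5.90 and its log2 fold change 1.07 (SE 0.07, limma adjusted p = 3.03e-07). The log2 scale with a pseudocount of 1 understates such low genes, and limma-voom on recovered reads gave 2.54. F5 was covered by 206 to 230 reads in GPR35-positive and 32 to 38 reads in GPR35-negative libraries. Within libraries F10 over F5 was 16.1 ± 0.539 in GPR35-positive and 12.2 ± 0.641 in GPR35-negative libraries (SD, n = 3 each).

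F13a1 (ENSMUSG00000039109), the factor XIII A gene on the reverse strand of chromosome 13 from 36867178 to 37050244, had the highest ratio of means among the members. It was at 1.6, 1.53 and 1.1 FPKM in the GPR35-positive libraries and 0.0688, 0.140 and 0.0660 FPKM in the GPR35-negative ones. The GPR35-positive values spread more than those of F5, and replicate 3 was the lowest of them. The ratio of means was 15.4 and the log2 fold change 1.14 (SE 0.09, limma adjusted p = 2.07e-06), or 3.93 by limma-voom on recovered reads. Only 8, 16 and 7 reads covered the gene in the GPR35-negative libraries, where exact 95% Poisson intervals ran from 2.81 to 26.0 reads and cover counting error only. F13a1 is also abundant in platelets. The 11 platelet and megakaryocyte markers did not move together. The platelet membrane genes Gp9 and Gp1bb were at 0.289 and 0 FPKM on average in GPR35-positive and at 0 FPKM for both in GPR35-negative libraries, while the platelet chemokine gene Pf4 averaged 18.3 FPKM in GPR35-positive and 2.27 FPKM in GPR35-negative libraries. Ppbp, another platelet chemokine gene, was called lower, with means of 52.8 FPKM in GPR35-positive and 67.3 FPKM in GPR35-negative libraries, and Itga2b averaged 0.204 FPKM in GPR35-positive and 0.345 FPKM in GPR35-negative ones. The summed level, most of it Ppbp, was 70.4 to 74.1 FPKM in GPR35-positive and 61.7 to 80.8 FPKM in GPR35-negative libraries, and the markers' part in the F13a1 difference was not tested.

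By group means, tissue factor was the most abundant member outside the fibrinogen genes, and it rose least of the 5 tested members called higher. F3 (ENSMUSG00000028128), the cell-surface trigger of clotting, spans bases 121723537 to 121735048 of chromosome 3, forward strand. It was at 39.2, 42.6 and 40.5 FPKM in the GPR35-positive libraries and 25.9, 28.2 and 28.3 FPKM in the GPR35-negative ones. The groups did not overlap, and the ratio of means was 1.48 (log2 fold change 0.55, SE 0.07, limma adjusted p = 7.81e-05). F3 over F7 was 4.91 ± 0.466 in GPR35-positive and 16.05 ± 3.68 in GPR35-negative libraries (SD, n = 3 each), with every GPR35-positive ratio below the GPR35-negative ones. The 7 fibroblast markers summed to 17.4 to 24.0 FPKM in GPR35-positive and 11.4 to 15.5 FPKM in GPR35-negative libraries. Col1a1 was the largest part, with means of 10.3 and 6.76 FPKM. It was called higher, as were Col1a2, Col3a1 and Dcn. Below the filter, Pdgfrb and Lum had higher means in GPR35-positive libraries, whereas Pdgfra averaged 0.511 FPKM there and 0.632 FPKM in GPR35-negative ones. The part of these markers in the F3 difference was not tested.

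Tfpi (ENSMUSG00000027082), the inhibitor of the tissue factor complex, spans bases 84432855 to 84476775 of chromosome 2, reverse strand, and stayed below the filter. It was at 0.491, 0.560 and 0.560 FPKM in the GPR35-positive libraries and 0.117, 0.130 and 0.116 FPKM in the GPR35-negative ones. The groups were apart and the ratio of means was 4.44, from 46 to 56 reads in GPR35-positive and 10 to 12 reads in GPR35-negative libraries. With no filter on low values Tfpi passed, with a log2 fold change of 0.46 (limma adjusted p = 7.33e-05), in a fit that called 17.4% of 19818 genes higher. The 10 endothelial markers summed to 13.8 to 14.9 FPKM in GPR35-positive and 14.4 to 15.996 FPKM in GPR35-negative libraries. Most of this sum was Pecam1, Egfl7 and Esam, so it says little of the scarcer markers. Of the 4 tested, Pecam1 and Eng were called higher and Egfl7 and Esam lower, and Eng reached the filter only through the GPR35-positive libraries. The 6 below the filter, Cdh5, Kdr, Tek, Tie1, Cldn5 and Emcn, all had higher means in GPR35-positive libraries, at most 0.251 FPKM. Tek, Tie1 and Cldn5 overlapped between the groups. The endothelial cadherin gene Cdh5 was at 0.106 FPKM on average in GPR35-positive libraries and at 0 FPKM in each GPR35-negative one. The part of endothelial cells in the Tfpi difference was not tested.

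**Figure D3:**
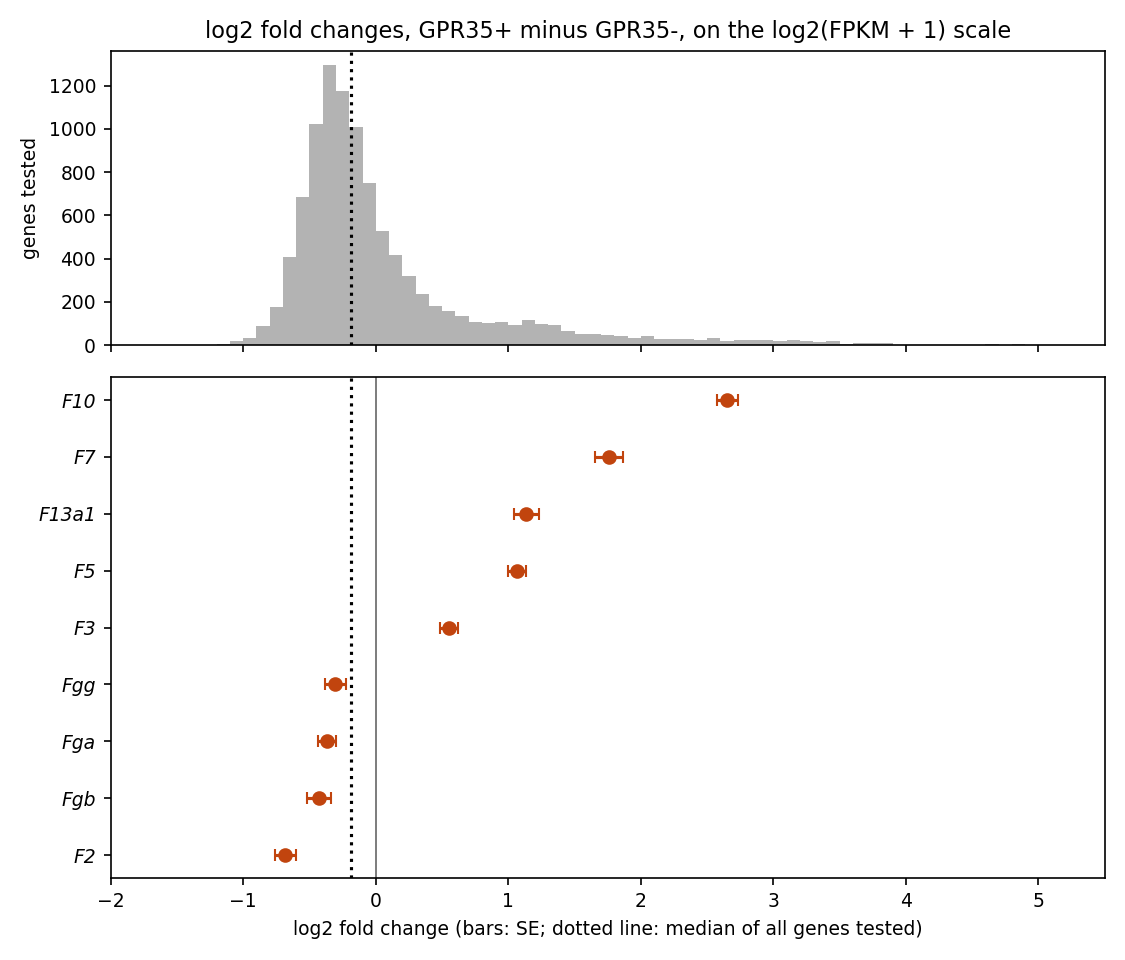
Top, histogram of log2 fold changes of the 10060 genes tested, GPR35-positive minus GPR35-negative, on the log2(FPKM + 1) scale; bottom, the 9 members tested with bars of 1 SE and the median of all genes as a dotted line. Fgg, Fga and Fgb lie just left of the median at −0.19, F2 lies further left at −0.68, and F10 lies furthest right on this scale at 2.65.

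The order of the members by level differed between the groups. In GPR35-positive libraries it ran Fgb, Fgg, F3, F10, Fga, F2, F7, F5, F13a1 and Tfpi, from 556 to 0.537 FPKM, and no neighbours in this order overlapped over the 3 libraries. In GPR35-negative libraries it ran Fgb, Fgg, F3, Fga, F2, F10, F7, F5, Tfpi and F13a1, from 749 to 0.0916 FPKM. Of neighbours in this order, F3 and Fga, Fga and F2, and Tfpi and F13a1 overlapped. F3 and F2 overlapped there too, with F3 over F2 at 0.991 in GPR35-negative replicate 1. F10 was thus above Fga and F2 in GPR35-positive libraries and below both in GPR35-negative ones. Ranks between genes rest on the exon length behind each FPKM, and the annotation used for it is not given, so close ranks are uncertain. F10 over F2 was 1.88 ± 0.134 in GPR35-positive and 0.146 ± 0.00138 in GPR35-negative libraries (SD, n = 3 each), a ratio of 12.8 that does not depend on how a library is scaled. F7 over F2 was 0.569 ± 0.0212 in GPR35-positive and 0.0729 ± 0.00930 in GPR35-negative libraries.

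Summed over the 5 liver-made members, the level was 688 to 810 FPKM in GPR35-positive and 931 to 1062 FPKM in GPR35-negative libraries, almost all of it fibrinogen. F5 and F10, the members made by both hepatocytes and macrophages, summed to 28.3 to 30.1 FPKM in GPR35-positive and 3.65 to 4.10 FPKM in GPR35-negative libraries. The ratios of means of F7, F5, F10 and F13a1, from 4.71 to 15.4, stood beside 21.4 for the summed macrophage markers and 10.02 for the mature neutrophil ones. F10 was at 28.4 ± 1.13 FPKM per 1000 FPKM of macrophage markers in GPR35-positive and 79.1 ± 8.76 in GPR35-negative libraries. Per 1000 FPKM of mature neutrophil markers, F10 was at 2.72 ± 0.225 in GPR35-positive and 3.52 ± 0.275 in GPR35-negative libraries (SD, n = 3 each). Relative to either sum F10 was therefore lower in every GPR35-positive library, whereas its FPKM was higher. Most of the macrophage sum was C1qa, C1qb, C1qc and Cd68, and most of the neutrophil sum was S100a8 and S100a9. Single tested macrophage markers had ratios of means from 2.62 for Stab1 to 35.6 for C1qb. Neutrophil markers ran from 5.30 for Ly6g to 12.5 for Fpr1, and F10 was at 7.78. The direction for F10 therefore depends on the markers used. F13a1 per 1000 FPKM of macrophage markers was 1.46 ± 0.299 in GPR35-positive and 2.05 ± 0.916 in GPR35-negative libraries, and these values overlapped. Per 1000 FPKM of mature neutrophil markers, the F13a1 means went the other way, at 0.141 ± 0.0310 in GPR35-positive and 0.0914 ± 0.0407 in GPR35-negative libraries, again with overlap. Both marker lists moved with these members, and the part of either cell type in the rises was not tested.

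**Figure D4:**
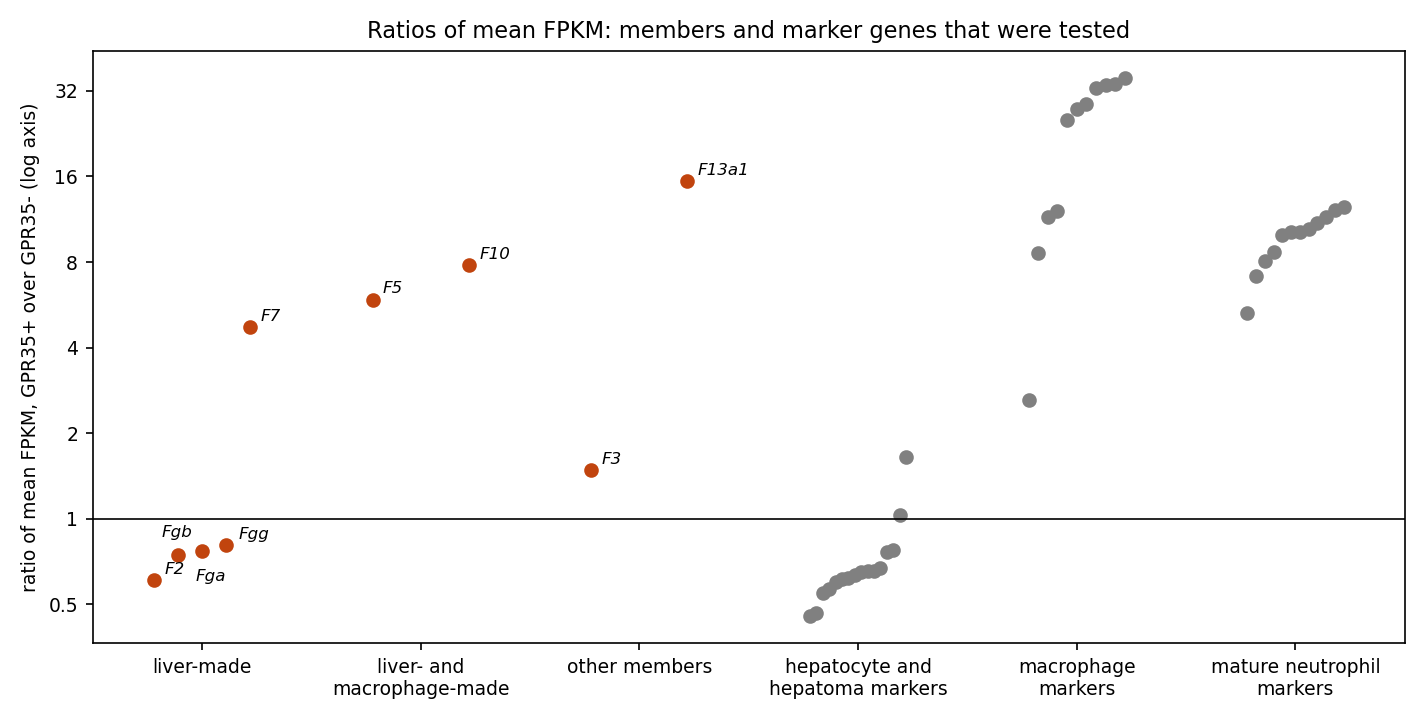
Ratios of mean FPKM, GPR35-positive over GPR35-negative, on a log axis, for the tested members by place of synthesis and for tested genes of 3 marker lists; each point is a gene. F2, Fgb, Fga and Fgg, at 0.607 to 0.809, lie among the hepatocyte and hepatoma markers. F7, F5 and F10, at 4.71, 5.90 and 7.78, lie below every tested macrophage marker except Stab1, at 2.62. F13a1, at 15.4, lies within the macrophage markers, which reach 35.6. Mature neutrophil markers span 5.30 to 12.5, with F5 and F10 inside this span, F7 below it and F13a1 above it.

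Genes whose pattern over the 6 libraries was most like that of a member were named by Pearson's r of log2(FPKM + 1) among 9810 named protein-coding genes tested. For F10 these were Vcam1, Lilrb4a and Cyfip2, with r of 0.9999, 0.9998 and 0.9998, and for F5 they were Fcer1g, Ugt1a7c and Lgmn, each at 0.9999. For F7 they were Arg2, Sfxn5 and Serpina3g, for F3 Itsn2, Gnpda1 and App, and for F13a1 Runx2, H2-T24 and Samd8. For Fgb the list held Rnf6, Gatc and the kininogen gene Kng1, for Fgg Thap1, Fuom and Tmco1, for Fga Mettl26, Pold2 and Gpx4, and for F2 Anxa7, Prag1 and Myadm. Such values are shared by many genes, since r exceeded 0.99 for 900 genes with F10 and for 903 with F5, and the 6 points fall into 2 groups. Across members, r was 0.999 between F5 and F10, 0.993 between F7 and F10 and −0.946 between F2 and F7.

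Among other coagulation genes, plasma protein genes were lower where they passed. Of 3 tested genes of thrombin receptors and their relatives 2 were higher, and of 8 tested genes of fibrinogen receptors and crosslinking 6 were higher. Of these, Thbd, Itgam, Itgax, Itgb3 and Tgm1 passed the filter only through the GPR35-positive libraries. Of all 43 other coagulation genes, 29 were tested, 10 of them higher, against 23.3% of all genes tested, and 12 lower, against 45.5%. The median log2 fold change of the 29 was −0.18, against −0.19 over all genes tested. With median-of-ratios scaling 10 were higher and 7 lower.

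Among other proenzymes and cofactors, 3 of 9 were tested. The kininogen genes Kng1 and Kng2, which encode carriers of bradykinin, were lower, with log2 fold changes of −0.35 (limma adjusted p = 0.00485) and −0.44 (limma adjusted p = 0.00132). With median-of-ratios scaling Kng1 did not pass, at −0.15 (limma adjusted p = 0.153), and Kng2 stood at −0.26 (limma adjusted p = 0.0252). Kng1 was at 67.9, 57.8 and 60.7 FPKM in GPR35-positive and 87.2, 76.1 and 74.5 FPKM in GPR35-negative libraries. F11, the factor XI gene, averaged 4.44 ± 0.10 FPKM in GPR35-positive and 5.59 ± 1.05 FPKM in GPR35-negative libraries (SD, n = 3 each), which missed the threshold (log2 fold change −0.26, limma adjusted p = 0.0569). Its log2 fold change was −0.14 without GPR35-negative replicate 1, −0.35 without replicate 2 and −0.30 without replicate 3 (limma adjusted p = 0.189, 0.0285 and 0.0456), and −0.10 with median-of-ratios scaling (limma adjusted p = 0.467). The factor VIII, IX, XII and XIII B genes (F8, F9, F12 and F13b), Klkb1 and Vwf were below the filter, with group means of at most 0.269 FPKM.

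Inhibitors of clotting and of fibrinolysis fell where they passed. Of 9, 6 were tested, 4 were lower, 0 were higher and 2 did not pass, and Cpb2, A2m and Proz were below the filter. Of all genes tested, 45.5% were lower and 23.3% higher. Proc, which encodes the anticoagulant protein C, was at 51.2, 49.99 and 48.9 FPKM in the GPR35-positive libraries and 79.6, 71.0 and 76.1 FPKM in the GPR35-negative ones (log2 fold change −0.58, limma adjusted p = 4.03e-05). Serpinf2, the gene of the plasmin inhibitor alpha-2-antiplasmin, averaged 232 ± 5.5 FPKM in GPR35-positive and 347 ± 14.1 FPKM in GPR35-negative libraries (SD, n = 3 each, log2 fold change −0.57, limma adjusted p = 2.81e-05). Serpind1, the heparin cofactor II gene, and Serpina10, whose product inhibits factor X with protein Z, were lower by log2 fold changes of −0.31 and −0.34. Both missed the threshold with median-of-ratios scaling, under which Serpinf2 stood at −0.38, and Serpina10 also without GPR35-positive replicate 1 (limma adjusted p = 0.0555) or GPR35-negative replicate 1 (limma adjusted p = 0.0547).

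Prothrombin, factors VII, IX and X and protein C are carboxylated by a vitamin K-dependent enzyme before secretion. Its gene Ggcx was at 11.1, 12.1 and 10.7 FPKM in the GPR35-positive libraries and 22.1, 21.4 and 16.8 FPKM in the GPR35-negative ones (log2 fold change −0.77, limma adjusted p = 0.000130). Lman1, which encodes a cargo receptor that carries factors V and VIII out of the endoplasmic reticulum, had a log2 fold change of −0.55 (limma adjusted p = 8.72e-05), or −0.36 with median-of-ratios scaling. The sulfotransferase gene Tpst2 and the protease gene Furin were higher, by 2.13 and 1.41 (limma adjusted p = 1.75e-09 and 1.58e-06). Of this list of 9, all tested, 2 were higher, 4 were lower and 3 did not pass. These shares were near the 23.3% higher and 45.5% lower of all genes tested.

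Thrombin's receptors were sparse. F2r, the gene of the thrombin receptor PAR1, was at 1.36, 1.76 and 1.98 FPKM in GPR35-positive and 0.991, 1.03 and 0.857 FPKM in GPR35-negative libraries (log2 fold change 0.46, limma adjusted p = 0.00198). Thbd, which encodes thrombomodulin, a receptor that turns thrombin towards protein C, averaged 1.41 ± 0.199 FPKM in GPR35-positive and 0.272 ± 0.0808 FPKM in GPR35-negative libraries (SD, n = 3 each, limma adjusted p = 7.57e-06). Procr, the gene of the endothelial protein C receptor, averaged 12.4 ± 0.726 FPKM in GPR35-positive and 14.3 ± 1.73 FPKM in GPR35-negative libraries, which missed the threshold (limma adjusted p = 0.112). Thbd was under 1 FPKM in every GPR35-negative library and F2r in 2 of 3, so that both reached the filter through the GPR35-positive libraries. The other 4 of the 7 genes, F2rl1, F2rl2, F2rl3 and Tfpi2, were below the filter. Of the 3 tested, 2 were higher and 0 lower, against 23.3% and 45.5% of all genes tested.

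The 3 leukocyte integrin genes of the fibrinogen receptor list were higher. Itgam and Itgb2, the chains of Mac-1, a leukocyte receptor for fibrinogen, had log2 fold changes of 2.09 and 2.98 (limma adjusted p = 5.46e-09 and 6.21e-10). Itgb2 was at 58.1, 62.8 and 60.5 FPKM in the GPR35-positive libraries and 7.18, 6.85 and 6.37 FPKM in the GPR35-negative ones. Itgax, the alpha chain of a related receptor, was higher by 2.61, and Tgm1, a transglutaminase related to F13a1, by 0.79 (limma adjusted p = 4.07e-05). Of 9 genes of this list 8 were tested, and Itga2b was below the filter. Of the 8, 6 were higher, against 23.3% of all genes tested, and 2 were lower, against 45.5%. Of the 6, Itgam, Itgax, Itgb3 and Tgm1 were under 1 FPKM in every GPR35-negative library, and for these 4 the filter itself favoured a rise. The 2 lower genes were Itgav and Ano6, named after their values were seen.

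**Figure D5:**
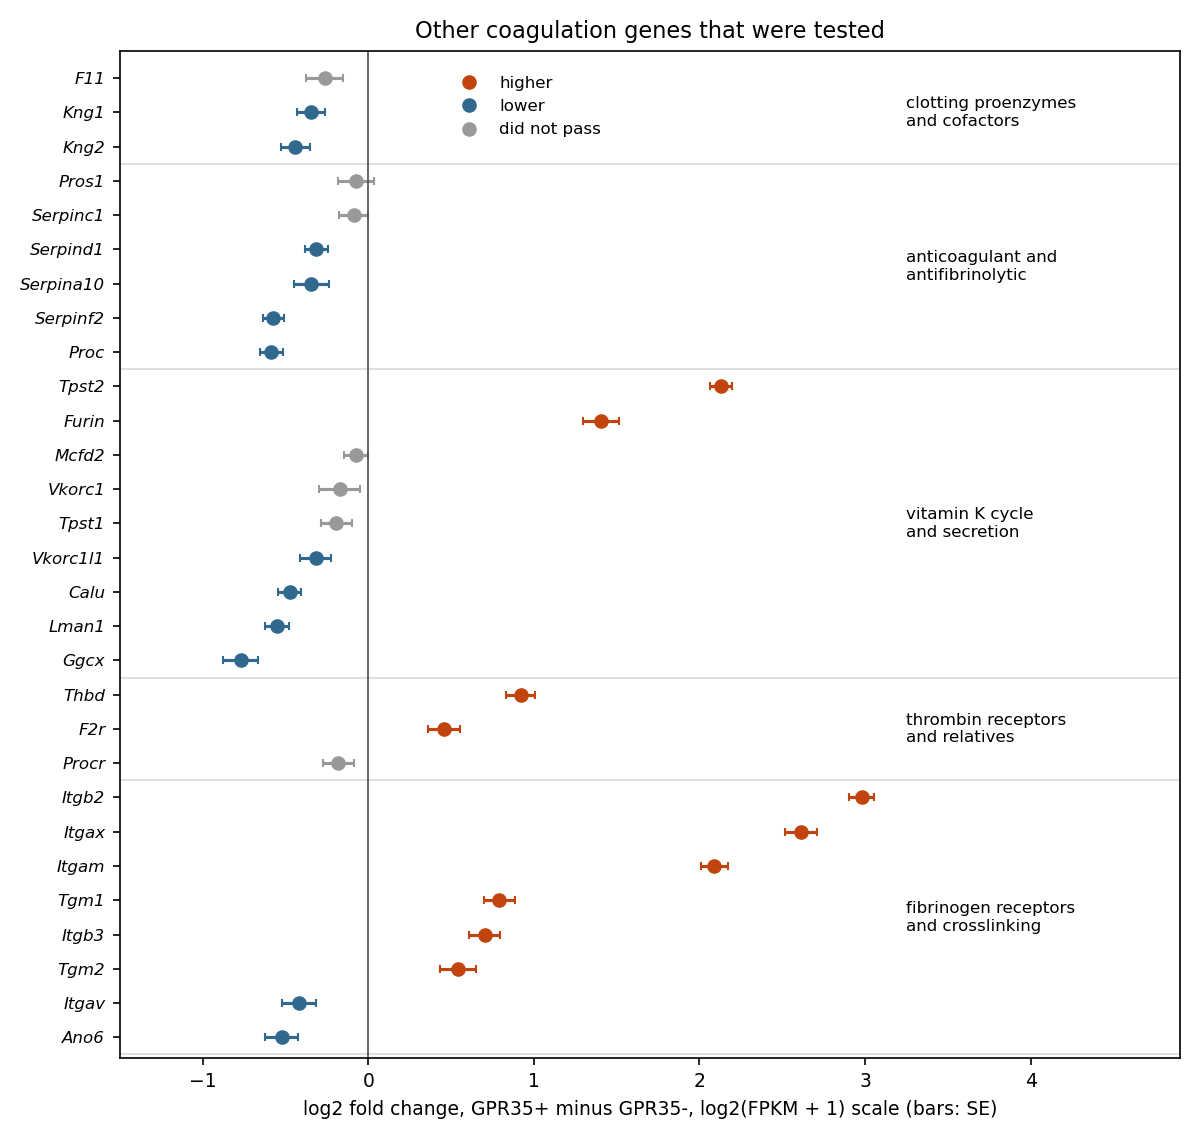
Log2 fold changes of the 29 tested genes of 5 lists of other coagulation genes, GPR35-positive minus GPR35-negative on the log2(FPKM + 1) scale, with bars of 1 SE. The 9 tested genes of the proenzyme and anticoagulant lists lie left of 0, whereas the 6 higher genes of the fibrinogen receptor list reach 2.98 at Itgb2.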

How the data were processed

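RNA-seq of 3 GPR35-positive and 3 GPR35-negative samples was analysed from 1 table of FPKM values, which the authors deposited per gene with mouse Ensembl IDs, per the file headers. Per the labels' protocols, total RNA was taken with Trizol and a NEBNext Ultra II kit was used for the libraries. Tools named in the submitters' processing notes are HTSeq 0.9.1, HISAT2 2.1.0, DESeq 1.38.3 and fastp 0.22.0. The same notes name the build GRCh38, although the IDs are those of mouse. The annotation and whether strand was used in counting are not given in the sources used here. Antisense genes overlap F13a1, and opposite-strand noncoding genes overlap F5 and Fgg, so reads from either strand may not be told apart there. F5 also overlaps a processed pseudogene, so its level is uncertain to that extent.

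Of the 21959 IDs, 21902 were matched to GENCODE M21. Each FPKM was divided by the value of 1 read for that gene's exon length, and 97.7% of values above 0 came out within 0.02 of whole reads, which gave depths of 15742744 to 18314104 reads per library. Intervals on reads cover counting error only. The main test was limma 3.58.1 (R 4.3.3, trended variance) on log2(FPKM + 1), group only, for genes that reached 1 FPKM in 3 or more libraries, with Benjamini-Hochberg adjustment over all 10060 and a threshold of 0.05. Shares and ratios within a library were tested by exact two-sided permutation with scipy 1.17.1. Scripts were tested on simulated data. Alternatives changed the pseudocount to 0.1, dropped the filter, rescaled by median of ratios or without mitochondrial and the 50 most abundant genes, ran limma-voom on recovered reads, added a replicate block or left out each library in turn.

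Members and gene lists were chosen with earlier results of these data known. All 10 members were described, with up to 4 genes of smallest p from each other coagulation list, and the 3 named genes of highest correlation with each tested member. Promoter sequences are those of RefSeq on GRCm38.p6, in which all 10 members were found.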

Additional observations from a re-analysis of the deposited data

How the results depend on the processing

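The 9 tested members kept their direction under all 12 alternatives, and each stayed past the threshold except Fgg, at −0.11 (limma adjusted p = 0.272) with median-of-ratios scaling. Over the alternatives the log2 fold change ran from 2.63 to 2.96 for F10, 1.69 to 2.24 for F7, 1.06 to 2.54 for F5, 1.08 to 3.93 for F13a1, 0.51 to 0.75 for F3 and −0.72 to −0.50 for F2. Tfpi passed with no filter, at 0.46. Among 9 tested members and 18 named other genes, 314 of 324 gene settings gave the same call. Median-of-ratios scaling reduced the other coagulation genes called lower to 7, took Kng1 (−0.15), Serpind1 (−0.12) and Serpina10 (−0.20) out of the calls, and left Procr at 0.00; the causes were not tested. F11 passed with scaling that left out the most abundant genes (−0.28) and without GPR35-negative replicate 2 (−0.35) or 3 (−0.30), and stood at −0.14 without replicate 1 and −0.10 with median-of-ratios scaling.

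Genes called across the table numbered 6917, and 6077 to 6920 when 1 library was left out. With the replicate block, 6998 genes passed, 2365 higher and 4633 lower, with the same 5 members higher and 4 lower. Deviations of same-numbered samples had r of 0.00, 0.40 and −0.06. Not every pair was over 0.1, so the numbers were not taken to pair the samples, although the labels do not say whether they do. Depth limits F13a1 and Tfpi most, since GPR35-negative libraries held 7 to 16 and 10 to 12 of their reads.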
